A study of Mus musculus with 72 samples.

Results

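Whole-cell mRNA turnover in E14TG2a cells, a male mouse embryonic stem cell line, was followed over 60 and 120 min of labeling with 4-thiouridine (4sU), a uridine analog that cells build into new RNA. The cells were kept in 2i and LIF, medium additions that hold stem cells in the naive state, and every group received 4sU. After alkylation the analog pairs like cytidine, and the resulting T-to-C conversions (T2C) in the reads mark RNA made since labeling began. The 4 samples were the whole-cell (total, unfractionated) libraries of replicates 3 and 4 at 60 min and at 120 min, out of 72 samples in the series. The genes were those with at least 2000 sequenced exonic T positions in each of the 4 libraries, which left 10470 of 29416 genes in the conversion tables. The share of new mRNA is T2C over T in the exons of a gene, divided by the conversion rate of the library. The labels give a 4sU dose of 100 µM for these 4 libraries and for replicates 5 and 6. The methods of the study give 100 µM to only 2 replicates at these times and 500 µM to the others, and the study set aside its libraries of 500 µM beyond 60 min, so the dose behind replicates 3 and 4 is uncertain. The 20 and 40 min libraries quoted beside them carry 500 µM in the labels. The labels state no shared batch for libraries of the same replicate number, and no untreated whole-cell library entered the comparison.

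The level of an mRNA is set by its synthesis and by its removal, and in a dividing cell also by dilution into the growing cell mass. A pulse of labeled nucleotide reads the replacement of the pool: a short-lived mRNA is soon made up of new copies, whereas a long-lived mRNA keeps its old copies for many hours. Messages for transcription factors and signaling inhibitors are known as short-lived, and messages for metabolic enzymes and ribosomal proteins as long-lived. Dilution by growth and decay cannot be told apart in these shares, so a half-life given here covers both.

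The libraries held 13185351 to 26317779 counts on genes, and the lowest total was that of replicate 3 at 120 min. Conversion rates were 7.13% and 7.90% at 60 min and 9.50% and 11.8% at 120 min. In whole cells of replicates 5 and 6, labelled with the same dose, they were 2.92% and 3.99% at 60 min and 3.91% and 3.74% at 120 min. Replicates 3 and 4 had 2.96% and 3.16% at 20 min and 4.81% and 4.84% at 40 min, both labelled 500 µM. The dose behind these rates was not tested. The median gene had 285 and 298 converted positions at 60 min and 372 and 790 at 120 min. Of the 10 stem cell markers listed, 9 were above 1 CPM (counts scaled to library size) in all 4 libraries, with *Dppa3* as the exception, and their summed level was 7098 to 7225 CPM at 60 min and 6225 to 6517 CPM at 120 min. The summed level of the 6 fibroblast markers was 2.43 to 2.74 CPM, and *Col3a1*, *Lum* and *Dcn* had no count in any of the 4 libraries. The 6 primitive endoderm markers summed to 5.54 to 6.80 CPM, the 5 trophoblast markers to 9.09 to 12.7 CPM and the 5 early differentiation markers to 9.66 to 13.0 CPM. *Eomes*, with 7.894 to 11.45 CPM, is in both the trophoblast and the early differentiation list and made up most of their sums. Whole-cell libraries of replicates 5 and 6 at the same times were used only to compare the rise, and there the library labelled 60 min of replicate 6 had a higher median share (36.6%) than the library labelled 120 min (17.1%). This order goes against the labels, while replicate 5 gave 21.3% at 60 min and 37.8% at 120 min.

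The share of new mRNA of the median gene was 10.9% and 11.4% in the 60 min libraries of replicates 3 and 4. It was 23.3% and 22.8% in the 120 min libraries. The mean rose from 11.1% ± 0.369 (SD, n = 2) to 23.0% ± 0.304 (SD, n = 2), a difference of 11.9 percentage points with no overlap between the times. An exact permutation test of 2 against 2 libraries gave p = 0.333 (two-sided), the smallest value that this design allows. Genes spread widely at both times. The 5th and 95th percentiles of the shares were 3.18% ± 0.0646 and 38.3% ± 0.494 (SD, n = 2) at 60 min, and 6.42% ± 0.0785 and 73.3% ± 1.12 (SD, n = 2) at 120 min. Genes with at least 50% new mRNA made up 2.16% ± 0.0270 (SD, n = 2) of the genes at 60 min and 16.5% ± 0.378 (SD, n = 2) at 120 min. Both 120 min shares lay above both 60 min shares in 9740 of the 10470 genes (93%), and both lay below in 25 genes. The order of genes was close between libraries, with Spearman's rho across the 10470 genes of 0.904 between the 60 min replicates and 0.949 between the 120 min replicates. These genes share their libraries and are not independent replicates, so no p is given.

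**Figure D1:**
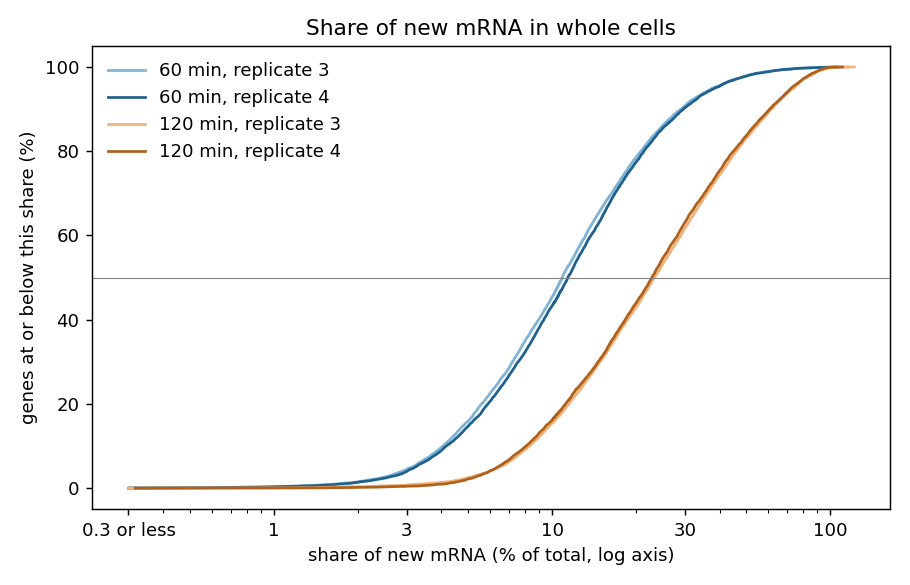
Cumulative share of the 10470 genes (y axis, %) at or below each share of new mRNA (x axis, % of total, log axis), with 1 line for each of the 4 whole-cell libraries. The lines of the 2 replicates lie together at each time, and the 120 min lines sit to the right of the 60 min lines over the whole range.

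Taken as a single exponential replacement, the median share corresponds to a half-life of 6.02 and 5.73 h in the 60 min libraries. The 120 min libraries gave 5.24 and 5.35 h. Over the same genes, whole cells of replicate 5 gave 2.89 h at 60 min and 2.92 h at 120 min, and those of replicate 6 gave 1.52 h and 7.41 h. The value thus depends on the replicates used, and the cause was not tested. The study reports shorter mean whole-cell half-lives, from its model and from a direct fit over its own set of genes. A constant rate would take the mean median share from 11.1% at 60 min to 21.0% at 120 min, and 23.0% was measured. The same replicates at shorter labeling had median shares of 3.44% and 3.43% at 20 min and 6.09% and 6.23% at 40 min. In the fractions of the same replicates at 120 min, the median share over these genes was 43.5% and 36.0% in the nucleus, 23.0% and 23.1% in the cytosol and 22.3% and 20.4% in the membrane fraction.

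Of the 1047 genes in the most replaced decile, 967 were protein-coding. The 12 genes with a symbol and the highest mean percentile over the 4 libraries were *Tsix*, *Txnip*, *Tagap*, *A930015D03Rik*, *Zfp773*, *Snhg12*, *Gm21781*, *Ccn1*, *Zc3h12a*, *Gm37795*, *Dancr* and *Mir17hg*. *Tsix*, the antisense RNA of the X inactivation center, had shares of 99.3% and 105% at 60 min and 105% and 99.4% at 120 min. Its share had been 48.3% and 50.5% at 20 min and 84.9% and 89.7% at 40 min, and it was close to 100% at 60 min. *Txnip*, which encodes a thioredoxin-binding protein that limits glucose uptake, went from 89.3% and 93.1% to 102% and 101.6%. *Zc3h12a*, which encodes an RNase that cleaves mRNA of inflammatory genes, stood at 84.7% and 92.7% at 60 min and at 109.9% and 92.2% at 120 min. A single conversion rate was applied to all genes of a library, so that a share can be computed above 100%, which occurred in 8 and 4 genes at 60 min and in 28 and 11 genes at 120 min. *Ccn1*, a secreted matrix protein gene induced by growth signals, rose from 73.8% and 73.0% to 107% and 100.5%. *Mir17hg*, the host transcript of the miR-17-92 cluster, had 94.8% and 86.4% at 60 min and 99.1% and 91.9% at 120 min. The smallest T count among these 12 genes was that of *Zfp773*, a zinc finger gene, with 196 converted positions of 2064 T in the 120 min library of replicate 3. *Dancr* shares nearly all of its counted positions with an annotation that has no symbol, ENSMUSG00000053656, which tied with *Zc3h12a* for the 9th place and was left out of the 12: both had 6524 T at 120 min in replicate 3 and 10299 T in replicate 4, so their reads cannot be told apart.

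**Figure D2:**
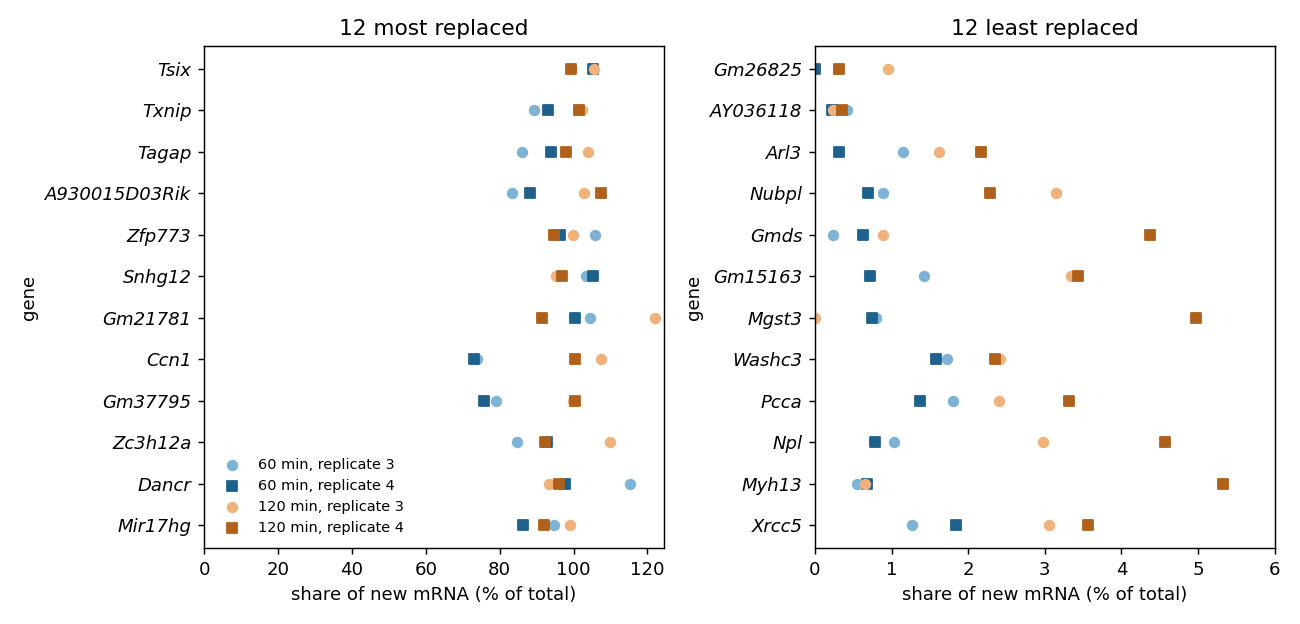
Share of new mRNA (x axis, % of total) of the 12 most replaced genes (left) and the 12 least replaced genes (right, on an axis from 0 to 6%), with 1 point for each of the 4 libraries. The most replaced genes lie between 73.0% and 122% at both times, and the least replaced genes stay at or below 5.33%.

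At the other end, the 12 least replaced genes were *Gm26825*, *AY036118*, *Arl3*, *Nubpl*, *Gmds*, *Gm15163*, *Mgst3*, *Washc3*, *Pcca*, *Npl*, *Myh13* and *Xrcc5*. *Xrcc5*, which encodes the Ku80 subunit of the DNA end-joining complex, was the deepest of them with 105821 to 188587 T, and its shares were 1.27% and 1.84% at 60 min and 3.05% and 3.57% at 120 min. Its 60 and 120 min values did not overlap. *Arl3*, a small GTPase gene of the primary cilium, had 1.15% and 0.318% at 60 min and 1.62% and 2.17% at 120 min. *Pcca*, which encodes a subunit of mitochondrial propionyl-CoA carboxylase, had 1.80% and 1.37% at 60 min and 2.40% and 3.31% at 120 min. *Nubpl*, an assembly factor gene of respiratory complex I, had 0.884% and 0.689% and then 3.15% and 2.28%. *Washc3*, a subunit of the WASH complex of endosomes, had 1.72% and 1.58% and then 2.42% and 2.35%. Several of these values rest on few conversions. *Gmds*, whose enzyme makes GDP-fucose, had 1 and 3 converted positions at 60 min and 3 and 28 at 120 min. *Mgst3* had no converted position of 2572 T in replicate 3 at 120 min, where 3 counts would be a share of 1.23%, and 4.97% in replicate 4. *Gm26825* had no conversion in replicate 4 at 60 min, where 3 counts would be 0.339%. Such limits cover counting error only. *AY036118* stayed between 0.216% and 0.416% at both times and had been at 1.56% and 1.02% at 20 min. It lies on chromosome 17 (GRCm38, 39847113 to 39848035, minus strand) opposite *Gm42418*, which is described with the flat shares below.

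The 9833 protein-coding genes had a median share of 11.3% at 60 min and 23.3% at 120 min, as mean of the replicates. The 72 lincRNA genes had medians of 21.9% and 45.1%, and 23 of them (31.9%) were in the most replaced decile, which holds 1047 of all genes. The 17 antisense genes had medians of 23.1% and 42.6%, above the lincRNA genes at 60 min and below them at 120 min. The 363 processed pseudogenes had medians of 7.88% and 15.5%, and 58 (16.0%) were in the least replaced decile. Their reads can be shared with the parent genes, so these values are uncertain. For 17 genes the annotation release used here gave no name.

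The 28 gene lists spanned the whole range of turnover. Across all genes the median was 11.2% at 60 min and 23.1% at 120 min. Immediate early genes, which respond to growth signals and stress within minutes, formed the fastest list. The medians of its 12 measured members were 55.7% and 56.2% in the 60 min libraries and 85.6% and 86.0% in the 120 min libraries, and 10 of 12 were in the most replaced decile. *Ccn1* was the highest of the list. *Srf*, the serum response factor gene, was the lowest, with 13.6% and 18.8% at 60 min and 32.6% and 28.8% at 120 min. The 18 feedback inhibitors of signaling had medians of 47.9% and 47.9% at 60 min and 79.4% and 83.7% at 120 min. *Spry4*, an inhibitor of receptor tyrosine kinase signaling, was the highest (89.0% and 85.5%, then 90.1% and 99.1%), and *Smurf2*, a ubiquitin ligase gene of TGF-β signaling, the lowest (13.7% and 14.4%, then 38.5% and 35.1%). Of the 3 Id and Hes factors, *Hes1* had 54.2% and 56.5% at 60 min and 88.7% and 78.1% at 120 min. The 262 zinc finger genes named Zfp had medians of 31.1% and 31.6% at 60 min and 64.4% and 61.9% at 120 min, and 151 of them were in the most replaced decile against 2 in the least replaced. *Zfp185*, which encodes an actin-associated LIM protein, was the lowest of these, at 2.98% and 3.31% and then 7.99% and 5.91%.

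The pluripotency factors were not of one kind. *Klf4* was the most replaced of the 17, with 44.4% and 46.0% at 60 min and 84.3% and 78.8% at 120 min. *Klf2* had 42.8% and 47.3% and then 79.8% and 80.2%, and *Sox2* had 38.2% and 36.1% and then 68.3% and 69.5%. *Nanog* took a middle place, with 21.1% and 20.3% at 60 min and 42.1% and 41.1% at 120 min. *Pou5f1*, which encodes Oct4, was the least replaced, with 3.54% and 3.03% at 60 min and 6.94% and 5.57% at 120 min, below the median of all genes in all 4 libraries. The list median was 23.2% and 25.2% at 60 min and 53.3% and 53.2% at 120 min. In the Myc network, *Myc* was the highest of 9 genes, with 50.5% and 56.4% at 60 min and 65.3% and 91.3% at 120 min, where the replicates stood far apart at 4043 and 5660 T. *Mlxip*, a glucose-responsive partner of Mlx, was the lowest, with 10.3% and 14.0% and then 21.7% and 26.1%. The 22 p53 targets had medians of 23.8% and 24.0% at 60 min and 58.3% and 51.2% at 120 min. *Cdkn1a*, which encodes the cell cycle inhibitor p21, was the highest of them, at 65.6% and 58.5% and then 92.8% and 96.7%, and *Bax* was the lowest, at 7.56% and 7.95% and then 14.7% and 14.5%.

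Among the regulators of mRNA itself, both ends of the scale occurred within 1 list. *Zfp36*, whose protein binds AU-rich elements and brings in the deadenylase, had shares of 85.6% and 82.2% at 60 min and 91.8% and 94.4% at 120 min. *Hnrnpd*, which also encodes an AU-rich element binding protein, had 4.22% and 3.28% and then 7.89% and 6.64%. Of the 26 decay factors, 7 were in the most replaced and 2 in the least replaced decile. The Clk kinases and SR proteins of splicing ranged from *Clk4* (48.9% and 42.1%, then 78.0% and 80.3%) to *Srsf9* (5.00% and 4.54%, then 9.23% and 9.90%). Histone methylation enzymes had medians of 15.6% and 36.5%, as mean of the replicates, from *Kmt2e* (47.0% and 42.0%, then 79.1% and 90.7%) to *Kdm1a* (8.60% and 8.63%, then 15.4% and 15.2%). Mitotic and cyclin genes had medians of 13.4% and 27.3%, with *Fbxo5*, an inhibitor of the anaphase-promoting complex, highest at 42.4% and 46.4% and then 81.1% and 83.4%. *Ccnd3* was the lowest there, at 5.42% and 5.47% and then 11.5% and 10.4%.

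Housekeeping and energy genes made up the slow end. The 77 nuclear-encoded genes of the respiratory chain had the lowest median of all lists, at 3.62% and 3.65% at 60 min and 7.15% and 6.42% at 120 min, and 57 of 77 were in the least replaced decile. *Ndufc1*, a complex I subunit gene, was the lowest of these, at 1.96% and 1.91% and then 1.75% and 3.50%, and *Cox6b2* was the highest, at 20.1% and 20.5% and then 36.1% and 24.1%. The 84 cytosolic ribosomal protein genes had medians of 4.17% and 3.83% at 60 min and 7.39% and 6.67% at 120 min, and 71 were in the least replaced decile. They ran from *Rps21* (2.65% and 2.62%, then 5.04% and 3.84%) to *Rpl7l1* (11.9% and 12.1%, then 27.6% and 24.8%). At their median share at 120 min, the half-life was 18.9 h for the ribosomal protein genes and 20.0 h for the respiratory chain genes, against 0.701 h for the immediate early genes. The slow values are longer than the cell cycle that the study cites for these cells. A half-life that includes dilution cannot exceed it in a pool that grows with the cells, so they are not true half-lives. The cause was not tested. The slow half-lives depend on what is taken as background. With the 1st percentile of the shares subtracted, the list medians at 120 min fell to 3.29% for the ribosomal protein genes and 3.05% for the respiratory chain genes. Without it they were 7.03% and 6.79% as mean of the library medians. This percentile comes from the genes themselves and is not a measured background, so it can also remove true label of slow genes. The medians at 120 min were 8.57% for 35 proteasome subunits, 8.44% for 15 glycolytic enzymes, 8.29% for 20 cytosolic tRNA synthetases and 8.81% for 8 subunits of the TRiC chaperonin. Single genes broke from the slow lists. *Hk2*, the hexokinase of the glycolytic list, had 17.6% and 17.4% at 60 min and 41.4% and 42.8% at 120 min. *Dnajb1*, a co-chaperone gene of the heat shock response, had 31.0% and 28.2% and then 76.0% and 70.9%. *Dnajb9*, an ER chaperone gene of the unfolded protein response, had 62.9% and 55.3% and then 101.0% and 88.9%, while *Pdia3* of the same list had 5.22% and 5.53% and then 12.7% and 11.7%.

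**Figure D3:**
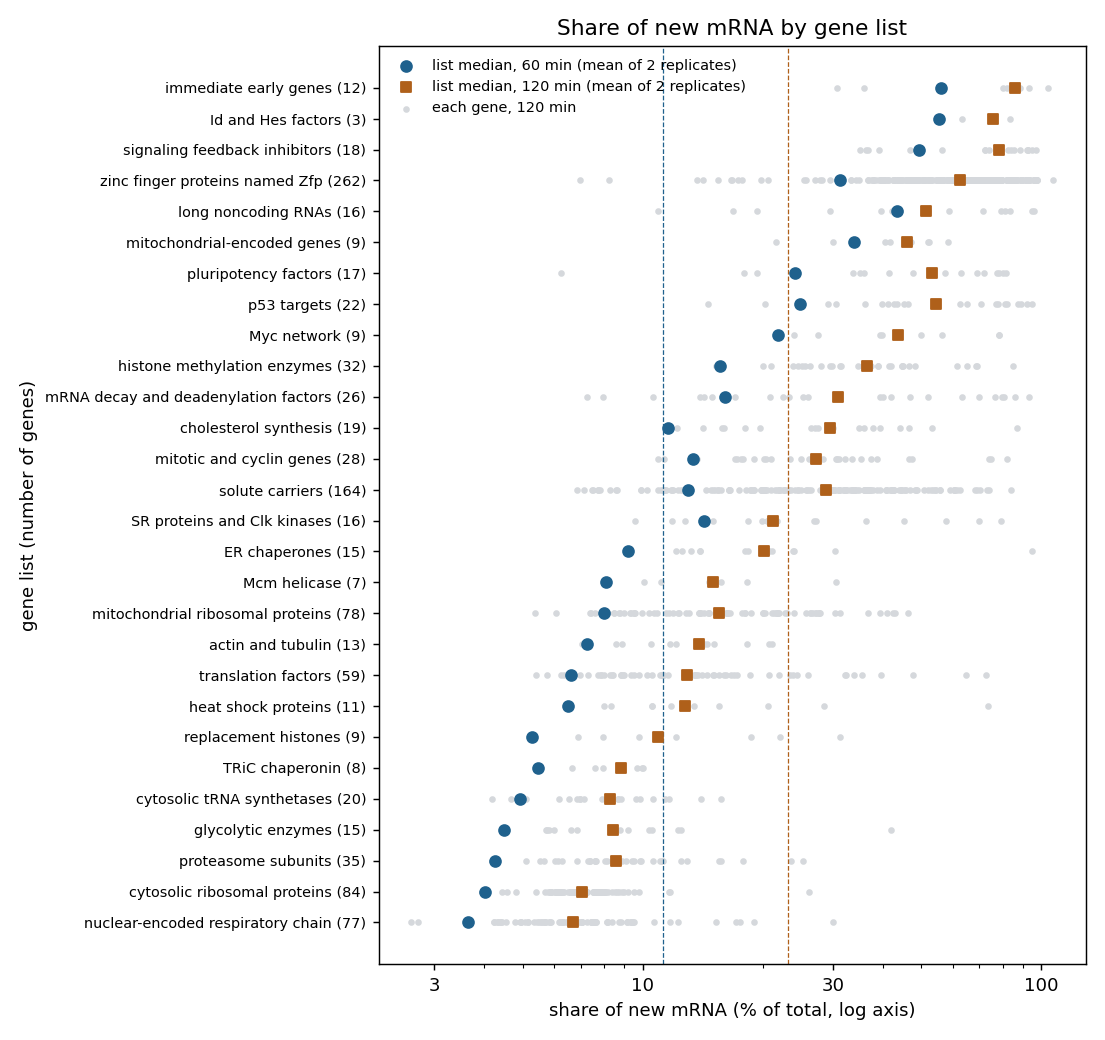
Share of new mRNA (x axis, % of total, log axis) for the 28 gene lists (y axis, number of measured genes in brackets), ordered by the median percentile of their genes. Circles give the list median at 60 min, squares the list median at 120 min and grey points each gene at 120 min, all as mean of the 2 replicates, and the dashed lines mark the medians of all 10470 genes at 60 min (11.2%) and 120 min (23.1%).

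For the remaining lists, the medians at 60 and 120 min are given as mean of the replicates. The 164 solute carriers had 13.0% and 28.9%, with *Slc25a25*, a mitochondrial carrier gene, highest at 37.8% and 44.7% and then 86.0% and 82.2%. The 19 cholesterol synthesis genes had 11.6% and 29.6%, with *Srebf2*, which encodes a transcription factor of sterol synthesis, lowest at 5.23% and 4.98% and then 12.5% and 11.9%. The 78 mitochondrial ribosomal proteins had 8% and 15.6%, the 7 Mcm helicase genes 8.09% and 15.0%, and the 15 ER chaperones 9.21% and 20.2%. The 13 actin and tubulin genes had 7.26% and 13.8%, the 59 translation factors 6.61% and 13.0%, the 11 heat shock proteins 6.51% and 12.8% and the 9 replacement histones 5.28% and 10.9%. Among translation factors, *Eif4a2*, an RNA helicase gene, stood at 70.0% and 62.4% at 60 min and 75.1% and 69.9% at 120 min. Of the genes that the study used as examples, *Nf1* had 15.9% and 23.3% and then 34.2% and 39.1%, *Tfrc* 16.3% and 13.2% and then 32.8% and 27.3%, *Slf1* 24.5% and 21.4% and then 38.6% and 29.9%, and *Kantr* 33.4% and 23.0% and then 63.6% and 53.8%.

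Transcript structure differed between the ends of the scale. For each protein-coding gene, the transcript with the longest coding sequence was read from the GENCODE M21 annotation (GRCm38). The least replaced decile had a median 3′ UTR of 353 nt, against 1029 nt over all genes and 1419 nt in the most replaced decile. Its median mRNA was 1734 nt long, against 3032 nt over all genes and 3407 nt in the most replaced decile. The most replaced decile had a median of 4 exons, against 10 over all genes and 9 in the least replaced decile. Across 9438 genes with a 3′ UTR of at least 50 nt, Spearman's rho of 3′ UTR length with the mean percentile was 0.31, and across 9833 genes that of exon number was -0.21. Mean expression over the 4 libraries had a rho of -0.28, with medians of 70.0 CPM in the least and 22.4 CPM in the most replaced decile.

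AU-rich elements in the 3′ UTR are bound by proteins such as Zfp36 and are known to speed mRNA decay. The heptamer TATTTAT, read on the sense strand of the 3′ UTR with overlaps allowed, was present in 392 of 923 genes of the most replaced decile (42.5%), in 109 of 908 genes of the least replaced decile (12%) and in 28.8% of all 9438. Within the shortest length class of 3′ UTRs (50 to 432 nt), 12.8% of the most replaced and 3.37% of the least replaced genes held it, and within the longest of 4 such classes (2069 nt or more) 66.1% and 48.8%. The Pumilio element TGTANATA was present in 35.8% and 9.36% of these deciles and in 25.7% of all. The seed match of miR-294-3p, AGCACTT, was present in 29.2% and 7.05% and in 16.5% of all, and miR-294 belongs to the miR-290 cluster of mouse embryonic stem cells. In the longest class of 3′ UTRs, the Pumilio element was present in 54.8% of the most and 35% of the least replaced genes, and the miR-294-3p seed match in 53.8% and 32.5%. A match is a description of the letters and not a site shown to be used. One heptamer window of 29 bases is printed for each of 4 genes of the most replaced decile that are named above, with the heptamer in capitals. These genes were taken from those that hold the heptamer, which most genes of this decile do not, so they are not typical of it. The windows are from GENCODE M21 transcripts, 5′ to 3′, at chr17:7934788-7934816 (plus strand, *Tagap*), chr3:145647093-145647121 (minus strand, *Ccn1*), chr7:28376966-28376994 (minus strand, *Zfp36*) and chr2:32415109-32415137 (minus strand, *Slc25a25*) of GRCm38. They held 1 heptamer in *Tagap*, 2 in *Ccn1* and 3 in each of the other genes over the whole 3′ UTR. The last line is the mature miRNA from RefSeq (chr7:3220691-3220712, plus strand), with its seed, bases 2 to 8, in capitals.
Tagap: tcagtagagttTATTTATtagtcacaata
Ccn1: gaatgttttttTATTTATcaaagtgtagc
Zfp36: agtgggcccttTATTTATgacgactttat
Slc25a25: tgcttggagccTATTTATtttgTATTTAT
miR-294-3p: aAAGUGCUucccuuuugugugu

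Some genes left the common course between 60 and 120 min. Each library was centered on its median over the 10470 genes, and the rise of every gene was compared with that median on the log2 scale by limma, with a call at Benjamini-Hochberg adjusted p under 0.05 and a deviation over 0.5. Of all genes, 95 rose more than the median (0.907%) and 201 rose less (1.92%). A pool cannot be more than fully new, so a gene that is nearly new at 60 min must rise less on this scale, and 77 of the 201 genes were in the most replaced decile. On the scale of the replacement rate, -ln(1 - share) over time with shares capped at 0.99, 530 genes (5.06%) gained more and 259 (2.47%) less than the median. This scale allows for the ceiling only below the cap. A gene at the cap at both times must fall on it, so a call of less among nearly new genes is no evidence of a slower rate. On the rate scale 92 of the 95 genes were called again in the same direction, as were 157 of the 201. These counts rest on the spread between the replicates of 4 libraries: with the 120 min library of replicate 4 left out, 116 genes were called, with that of replicate 3 left out 170, and without the 60 min library of replicate 3 or 4, 867 and 776, with the spread taken from the other 3 libraries. With the spread pooled over 8 libraries, replicates 5 and 6 included, 10 were called and, with any of the 4 left out, 0 to 6, and 268 when replicate 6, which goes against its labels, was left out.

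The 6 genes that rose more with the smallest adjusted p were *Pias2*, *Kifc1*, *Prr12*, *Plxna1*, *Rbm26* and *Tmem39a*. *Pias2*, a SUMO ligase gene, had 4.53% and 5.01% at 60 min and 22.8% and 19.5% at 120 min, a deviation of 1.10 ± 0.138 (SE) with limma adjusted p = 9.28e-05. It had been at 0.954% and 1.66% at 20 min and at 1.90% and 1.30% at 40 min. *Kifc1*, a mitotic kinesin gene, went from 9.28% and 9.33% to 34.8% and 32.5% (deviation 0.80 ± 0.119, adjusted p = 0.000442). *Prr12* went from 12.8% and 16.6% to 58.1% and 56.2%, and *Plxna1*, a semaphorin receptor gene, from 10.4% and 9.16% to 39.1% and 33.7%. *Rbm26* and *Tmem39a* had deviations of 1.01 ± 0.158 and 0.87 ± 0.139 (SE). The 60 and 120 min values of all 6 genes did not overlap, but both 120 min shares were the higher ones in 9740 of all 10470 genes (93%). With the shares read only from exons within 5 kb of the 3′ end, *Plxna1* kept its call (deviation 0.85, limma adjusted p = 0.0146), whereas *Kifc1* (0.81, adjusted p = 0.208), *Tmem39a* (0.81, adjusted p = 0.151) and *Prr12* (0.52, adjusted p = 0.252) lost theirs. *Pias2* and *Rbm26* had too few T there. In the 9026 genes deep enough in this window, 16 rose more and 84 less, against 84 and 177 over all exons.

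The location of the genes that rose more was read from the fractions, which the calls did not use. In 48 of 95 (50.5%), the T count, scaled to the total of each library, was over 2-fold higher in the membrane than in the cytosol fraction of the same replicates, against 18.3% of all genes. In 71 of 95 (74.7%) it was over 2-fold higher in the nucleus than in the cytosol, against 33.2% of all genes. Their median log2 ratios were 1.17 (membrane to cytosol) and 2.69 (nucleus to cytosol), against -0.41 and 0.33 over all genes, and their median mRNA of 4116 nt was longer than the 2934 nt of all genes. *Plxna1* had log2 ratios of 3.87 and 5.12, and *Pias2* of -0.69 and -0.59, so the gene with the smallest adjusted p did not share this location. These are relative contents, since each fraction was scaled to its own total.

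**Figure D4:**
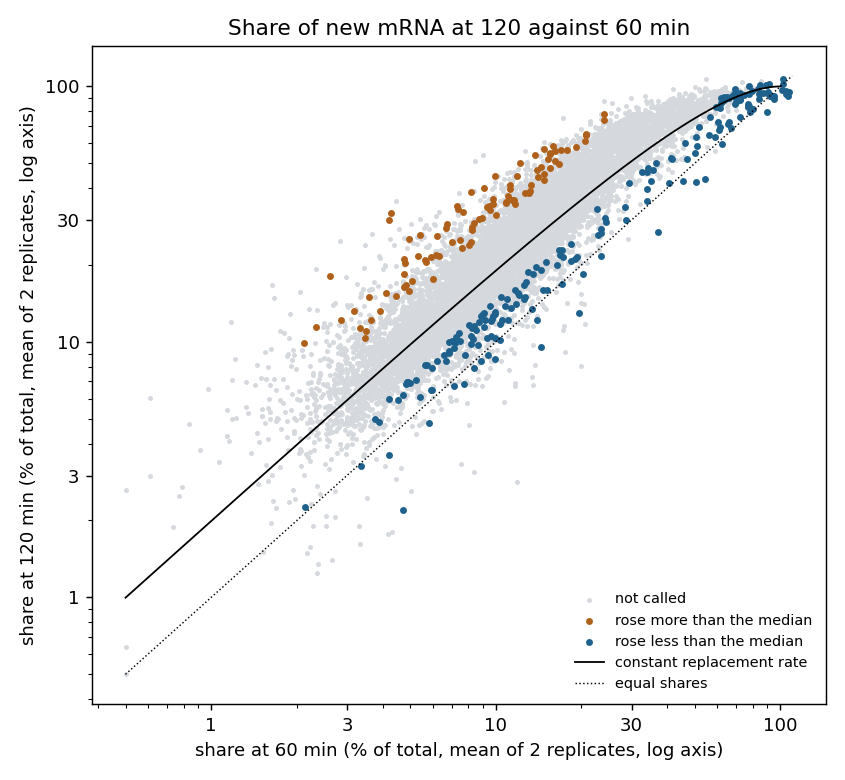
Share of new mRNA at 120 min (y axis) against 60 min (x axis), both in % of total, mean of 2 replicates, on log axes, for the 10470 genes, with values under 0.5% drawn at 0.5%. The 95 genes that rose more than the median lie above the solid line of a constant replacement rate, and most of the 201 that rose less lie between it and the dotted line of equal shares.

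Flat shares were the clearest departure. Of the 6 genes that rose less with the smallest adjusted p, *Rps9* stood at 8.57% and 8.24% at 60 min and at 8.48% and 7.35% at 120 min, a deviation of -1.14 ± 0.114 (SE, limma adjusted p = 1.12e-05). It had already been at 6.81% and 6.33% at 20 min, while the medians of its list rose from 4.17% and 3.83% to 7.39% and 6.67%. In the fractions of the same replicates, *Rps9* was not flat. It went from 4.37% and 3.84% to 5.76% and 5.51% in the cytosol and from 5.23% and 4.36% to 6.83% and 5.68% in the membrane fraction. In the nucleus it had 48.3% and 23.9% and then 40.2% and 23.8%. *Gm42418*, an annotated lincRNA on chromosome 17 that overlaps *AY036118* on the other strand, was flat at 3.48% and 3.23% and then 3.52% and 2.99% (deviation -1.09 ± 0.0929, adjusted p = 1.99e-06). The level of *Gm42418* was uneven, with 11860 and 38740 CPM at 60 min and 20220 and 15240 CPM at 120 min. In the nucleus its shares were 13.5% and 8.69% and then 24.5% and 6.95%, and the origin of its reads was not tested. Its neighbor *Gm26917* (chromosome 17, 39843013 to 39846341, plus strand) held 60.8% and 73.7% at 60 min and 69.3% and 68.7% at 120 min. *Snhg12*, a host RNA of small nucleolar RNAs, was at 79.4% and 91.0% at 20 min and stayed at 103% and 105% at 60 min and 95.2% and 96.9% at 120 min.

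Of the 16 measured long noncoding RNAs of the list, none rose more than the median and 10 rose less, against 0.907% and 1.92% of all genes, and their median deviation was -0.89 against -0.03 over all genes. *Malat1*, a nuclear RNA of splicing speckles, was flat at 17.5% and 16.6% at 60 min and 17.5% and 16.2% at 120 min (deviation -1.06 ± 0.116, adjusted p = 2.81e-05). *Neat1*, the scaffold RNA of paraspeckles, was flat at a high level, with 80.9% and 79.1% and then 81.7% and 80.9% (deviation -1.02 ± 0.116). *Snhg6* had 83.9% and 72.9% and then 82.1% and 76.1%, and *Snhg1* 67.2% and 63.6% and then 72.1% and 71.0%. *Gas5*, another host RNA that is degraded when translated, had 27.1% and 21.8% and then 33.8% and 25.2%. *Rian*, an imprinted RNA and the lowest of the list, had 5.29% and 6.89% and then 10.7% and 11.1%, and was not called. *Srsf7*, an SR protein gene, likewise rose less, from 12.8% and 12.5% to 14.0% and 16.1% (deviation -0.80 ± 0.121), and 4 of the 16 genes of the splicing list were called in this direction.

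Mitochondrial transcripts were replaced far faster than the nuclear mRNAs for the same complexes, and most rose less than the median. The 9 measured mitochondrial-encoded genes had medians of 34.1% and 33.5% at 60 min and 46.9% and 45.4% at 120 min, against 3.62% and 3.65% and then 7.15% and 6.42% for the 77 nuclear-encoded genes of the respiratory chain. *mt-Nd2* had 51.1% and 50.6% at 60 min and 59.0% and 57.6% at 120 min (deviation -0.85 ± 0.0712, limma adjusted p = 1.99e-06). *mt-Nd5* had 40.5% and 42.2% and then 52.4% and 52.4%, after 17.5% and 16.1% at 20 min and 30.7% and 30.5% at 40 min. *mt-Co1* was the slowest, with 13.3% and 12.8% and then 21.7% and 21.5%, on 14200321 T in the deepest library. Of the 9 genes, 7 rose less than the median and none rose more. *mt-Nd6*, encoded on the other strand, was flat at 30.1% and 27.2% and then 31.5% and 28.6%. The library preparation selected for poly(A), so these values describe the polyadenylated part of each RNA.

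**Figure D5:**
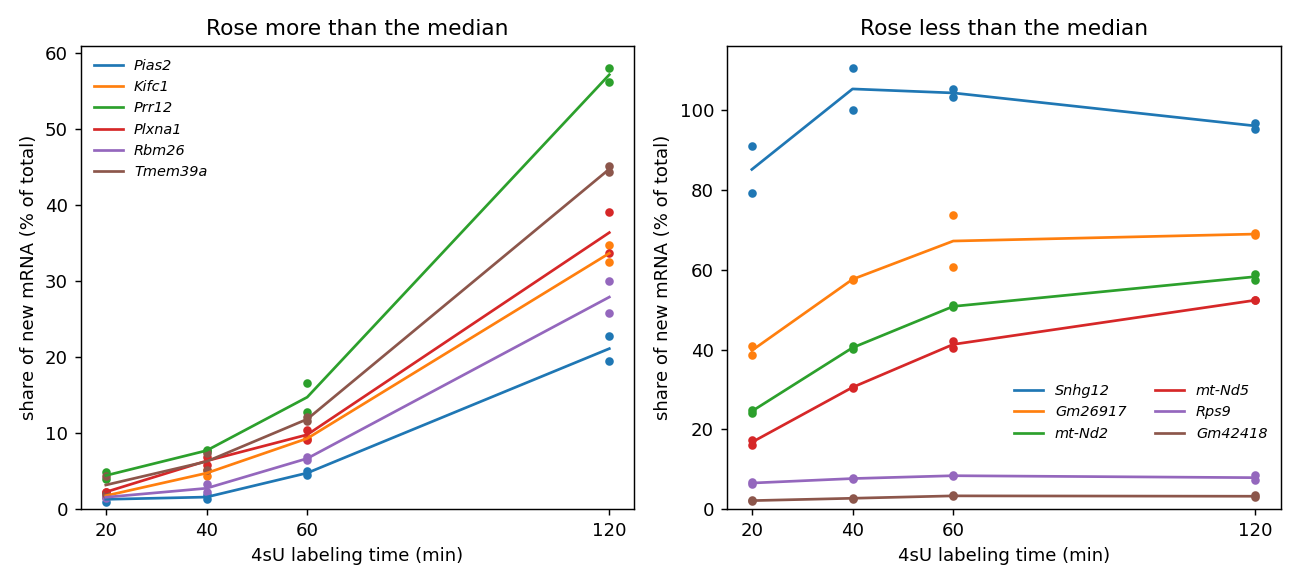
Share of new mRNA (y axis, % of total) by 4sU labeling time (x axis, min) in whole cells of replicates 3 and 4, for the 6 genes with the smallest adjusted p that rose more (left) and less (right) than the median between 60 and 120 min. Points are single libraries, lines join the means, and the labels give another 4sU dose at 20 and 40 min than later; *Pias2* climbs from 4.53% and 5.01% at 60 min to 22.8% and 19.5% at 120 min, whereas *Rps9* and *Gm42418* are flat.

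In the other lists, the counts are read against 0.907% of all genes that rose more and 1.92% that rose less. Among cholesterol synthesis genes, *Sqle* (deviation 0.58 ± 0.119, limma adjusted p = 0.00905) and *Cyp51* (0.61 ± 0.127, adjusted p = 0.0103) rose more than the median, and none of the 19 rose less. Of the 22 p53 targets, *Trp53inp1* rose more (0.57 ± 0.127, adjusted p = 0.0151) and none less, and on the rate scale 10 were called higher and none lower, against 5.06% and 2.47% of all genes. Of the 18 feedback inhibitors, 6 rose less and none rose more, while on the rate scale 1 was called in each direction. Of the 262 Zfp genes, 1 rose more and 7 rose less, and on the rate scale 26 and 2. *Id3* was called lower on both scales, with 50.3% and 67.7% at 60 min and 55.6% and 71.3% at 120 min, although the replicates at each time overlapped those at the other.

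No gene passed the main test of mRNA level between these times. The comparison asks whether the longer labeling altered mRNA levels. The study ran such a test on its whole-cell counts. At its higher 4sU dose it found many genes changed from 120 min onwards against unlabeled cells, and it excluded those libraries. At its lower dose it found no gene changed at 120 min against 60 min. The dose behind replicates 3 and 4 is uncertain. Both groups here were labeled, so a change already present at 60 min would be missed. In bulk libraries, fewer cells that express a gene and less of its RNA per cell cannot be told apart. With edgeR's quasi-likelihood test on the counts of 18 whole-cell libraries, none of 16858 genes (0%) was called at adjusted p under 0.05 and a log2 fold change over 0.5, and 930 had an unadjusted p under 0.05. In counts simulated with an assumed spread, this test recovered 120 of 200 genes changed by 1 log2 unit, so 0 calls do not show that levels were alike. DESeq2 called 7 genes, of which 4 were higher and 3 lower at 120 min. *Plk2*, a kinase gene among the p53 targets, had 69.3 and 63.7 CPM at 60 min and 143 and 138 CPM at 120 min, with a log2 fold change of 1.08 ± 0.211 (SE), edgeR adjusted p = 0.447 and DESeq2 adjusted p = 0.0187. *Mdm2* had 234 and 219 CPM and then 342 and 340 CPM (log2 fold change 0.59 ± 0.210, edgeR adjusted p = 0.802). *Neat1* had 46.9 and 68.1 CPM and then 26.1 and 25.9 CPM (log2 fold change -1.14 ± 0.275, edgeR adjusted p = 0.621). These 3 genes were picked after their values were seen, and none passed the correction in the edgeR fit of 18 libraries. In an edgeR fit of the 4 libraries alone, *Plk2* was the 1 gene called (log2 fold change 1.09, adjusted p = 0.0316).

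Whether the rise from 60 to 120 min differed between replicates 3 and 4 and replicates 5 and 6 was tested by limma as an interaction over 10468 genes. None was called (0%), and 795 had an unadjusted p under 0.05. Without the 120 min library of replicate 5, 45 genes were called. With both libraries of replicate 6 left out, none was called and 430 had an unadjusted p under 0.05, but replicate 5 then stood alone at each time and was assumed to vary like replicates 3 and 4. A count of 0 does not show that the rises were alike. Across genes, Spearman's rho of the 60 min shares of replicates 3 and 4 was 0.863 and 0.864 with the 60 min library of replicate 5, and that of the 120 min shares was 0.916 and 0.923 with its 120 min library.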

How the data were processed

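Whole-cell SLAM-seq libraries of E14TG2a cells were analyzed from the tables of the authors, who aligned reads with STAR 2.7.6 to mm10 (GRCm38, GENCODE M14) and counted genes with HTSeq 0.11.1. The counts deposited by the authors are raw reads per gene in the gene tables, and numbers of T positions and T2C conversions per gene in the conversion tables. The conversion rate is a fraction per library that the authors estimated with a mixture model after leaving out variants seen in unlabeled libraries, and the deposited ratio is T2C over T divided by that rate, which was recomputed from the counts with a largest difference of 1.42e-13. Reads assigned to no gene, 32.7% to 46.7% of a library, stayed out of library sizes. One read covers several T positions, so T2C counts are not independent molecules, and precision was taken from replicates. The study describes independently passaged replicates.

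Genes needed at least 2000 T in all 4 libraries; the nearest genes to this limit were Gm20449 (2000 T, shares of 41.6% and 84.2%, then 71.5% and 82.2%) and, outside, Pnma5 (1997 T, 31.9% and 28.2%, then 74.8% and 47.1%). The rise was fitted with limma 3.58.1 on log2((T2C + 0.5)/(T + 1)/rate), centered per library, with an intensity trend and robust shrinkage, without a replicate term. Expression used edgeR 4.0.16 with TMM and filterByExpr over 18 whole-cell libraries in groups of time and replicate pair, and DESeq2 1.42.0 as an alternative. Both fits were tested on data simulated with an assumed spread and 200 genes changed by 1 log2 unit. The fit of the rise recovered 194 with 2 false calls, and the expression fit recovered 120 with 9 false calls. The spread assumed for the rise was not matched to the measured one. Between replicates, the measured log2 shares had a median absolute deviation of 0.2408 at 60 min and 0.1795 at 120 min. The recovery can thus be too high for the real data. Named genes are the 12 highest and 12 lowest by mean percentile, the 6 smallest adjusted p in each direction of the rise, the highest and lowest member of each list with at least 3 genes and 6 genes named by the study; other genes in the text were chosen after their values were seen. One gene that this rule names is not reported here. The genes, lists and tests were chosen with earlier results of these data known. Alternatives were lower and higher T minimums, background subtraction, exons within 5 kb of the 3′ end, other scales and pseudocounts, a replicate block and leaving out libraries. P-values measure the spread between these libraries.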

Additional observations from a re-analysis of the deposited data

How the results depend on the processing

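The median share at 60 and 120 min was 11.66% and 24.51% with a minimum of 400 T, 10.03% and 20.26% with one of 10000 T, 9.442% and 19.3% after the 1st percentile of the shares was subtracted as background, and 12.76% and 24.29% from exons within 5 kb of the 3′ end. Leaving out a replicate gave 10.88% to 11.4% at 60 min and 22.83% to 23.26% at 120 min. A delay of 5 min before labeling took the half-life of the median gene to 5.384 h from the 60 min libraries and 5.073 h from the 120 min libraries. Against the 296 genes that left the common rise, 8797 were called without centering, 789 on the rate scale, 10 in the fit of 8 libraries, 100 from exons within 5 kb (16 more and 84 less, against 84 and 177 over all exons for the genes deep enough there), and 461 with the replicate block. Leaving out 1 library gave 0 to 6 calls with the spread of 8 libraries and, in fits chosen after seeing the data, 170 without replicate 3 and 116 without replicate 4 at 120 min, and 867 and 776 without them at 60 min. Without centering, the values of mt-Nd2 (0.197), mt-Nd5 (0.3429) and Gm26917 (0.04363) were above 0, since the common rise is then included. Replicate numbers do not pair these libraries by their labels: deviations of same-numbered libraries correlated at 0.127 for log2 shares and 0.345 for log2 CPM, over 2 pairs. For expression, against 0 calls, there were 42 without the filter on low counts, 1 in the 4 libraries alone, 7 with DESeq2 and 0 with the replicate block. The comparison of the rise with replicates 5 and 6 gave 0 calls except without the 120 min library of replicate 5, where it gave 45. Of 28 list medians at 120 min, 26 moved by more than the replicate SD with the 1st percentile subtracted, which is not a measured background. Where values changed, the cause was not tested. Depth limits the slow genes most: at the least replaced end, shares rest on as few as 0 to 3 conversions.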

Other observations

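The libraries labelled 60 and 120 min of replicate 6 in whole cells stood apart from their labels. Across the 10470 genes, the shares of the library labelled 60 min of replicate 6 had a Spearman's rho of 0.973 with the 120 min library of replicate 5 and of 0.918 with its 60 min library. The library labelled 120 min of replicate 6 had a rho of 0.929 with the 60 min library of replicate 5 and of 0.931 with its 120 min library. These libraries were used under their labels, and the cause was not tested.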
